A study of Homo sapiens with 12 samples.

Results

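The mRNAs of 8 enzymes of the tricarboxylic acid (TCA) cycle, CS, IDH1, IDH2, IDH3A, OGDH, SUCLG1, FH and MDH2, were followed in RCC4 cells after knockdown of HIF-1α, HIF-2α or both. They were taken by symbol from the count tables, and all 8 were found among the 23106 symbols listed for each library. RCC4 is an established line of human clear cell renal cell carcinoma (ccRCC) that lacks functional VHL, so that both HIF-α proteins persist at normal oxygen. Every dish received 2 nM of siRNA for 48 h, as pools of siRNAs and with the same transfection reagent. Control dishes received 2 nM of non-targeting siRNA, HIF1A siRNA dishes 1 nM of HIF1A siRNA plus 1 nM of control siRNA, and HIF2A siRNA dishes 1 nM of siRNA against EPAS1, the gene of HIF-2α, plus 1 nM of control siRNA. The double knockdown received 1 nM of each HIF siRNA and was the only condition without control siRNA. There were 3 replicates of each of the 4 conditions, 12 libraries in all, from a single cell line, so the p-values describe the spread between these replicates only.

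The TCA cycle oxidizes acetyl units in the mitochondrial matrix and passes their electrons to the respiratory chain. Citrate synthase (CS) opens it, the mitochondrial isocitrate dehydrogenases and the oxoglutarate dehydrogenase complex carry out its oxidative decarboxylations, and succinyl-CoA ligase, fumarase (FH) and malate dehydrogenase (MDH2) return the carbon to oxaloacetate. IDH1 is a cytosolic isoenzyme and is counted here with the members. HIF-1 is known for limiting the entry of pyruvate into the cycle, through pyruvate dehydrogenase kinases such as PDK1. FH is itself a tumor suppressor of the kidney, and fumarate and succinate inhibit the prolyl hydroxylases that mark HIF-α for degradation.

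The libraries held 13263168 to 20451433 counts, and the 8 enzymes had between 607 (SUCLG1) and 9855 (CS) counts in a library. HIF1A mRNA was at 96.7 ± 33.6 CPM (the count relative to the library's TMM-scaled total; SD, n = 3) with control siRNA and at 18.3 ± 3.62 with HIF1A siRNA, and EPAS1 mRNA was at 157 ± 16.9 with control siRNA and 10.1 ± 1.53 with HIF2A siRNA. In the double knockdown EPAS1 was at 8.94 ± 2.16 and HIF1A at 28.7 ± 4.09, with every library (24.2 to 32.2) above those with HIF1A siRNA (15 to 22.2). EPAS1 with HIF1A siRNA was at 114 ± 17.7, with every library (101 to 134) below all controls (138 to 171). By edgeR neither this difference (log2 -0.47, adjusted p = 0.28) nor that of HIF1A (0.66, adjusted p = 0.182) was called. Their part in the later comparisons was not tested. CA9, a textbook target of HIF-1, was at 226 ± 73.2 CPM with control siRNA, 18.7 ± 8.69 with HIF1A siRNA, 305 ± 104 with HIF2A siRNA (312, 405 and 197 in replicates 1, 2 and 3) and 13 ± 5.43 in the double knockdown. The labels call the cells epithelial. EPCAM, KRT8, KRT18, KRT19, PAX2, PAX8 and CDH2 (412 CPM with control siRNA) were present, while CDH1 (E-cadherin) had at most 9 counts in any library. PTPRC, CD3E, PECAM1 and HBB, which mark immune, endothelial and erythroid cells, had 0 counts in all 12 libraries. CDH5, KDR and DCN had at most 6 counts in any library. The rest of the listed markers of other cell types were not absent. With control siRNA, CD68 (listed as immune) had a mean of 49 CPM, ACTA2 9.89, ALB 5.19, PDGFRB 2.75 and LUM 0.669. Replicate 2 of HIF2A siRNA stood furthest from the pattern of the other libraries, with a median absolute residual of 0.165 on the log2 CPM scale after the means of condition and replicate number were removed, against 0.076 to 0.144 in the others. Comparisons of the enzymes that involve HIF2A siRNA are also given without it.

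Per kilobase of transcript, the 8 mRNAs spanned an order of magnitude with control siRNA. MDH2, the malate dehydrogenase of the matrix, was the highest at 124 ± 13 CPM per kilobase (SD, n = 3), followed by CS at 113 ± 7.16 and FH at 84.9 ± 20. The ranges of MDH2 (112 to 138) and CS (105 to 119) overlapped, as did those of CS and FH (66 to 106). A second tier held OGDH, the first subunit of the oxoglutarate dehydrogenase complex, at 42.6 ± 11.6, SUCLG1, the α subunit of succinyl-CoA ligase, at 40.8 ± 6.49, the mitochondrial NADP enzyme IDH2 at 39.3 ± 2.46 and its cytosolic counterpart IDH1 at 38.3 ± 10.2. These 4 overlapped one another and did not differ beyond their spread. IDH3A, the catalytic subunit of the NAD-dependent isocitrate dehydrogenase, was the lowest at 11.4 ± 0.993, and its highest library (12.4) was below the lowest of every other member. The other subunits of that enzyme, IDH3B at 83.1 and IDH3G at 41.1, were higher. The 21 genes examined for the cycle include cytosolic isoenzymes. Of these 21, cytosolic MDH1 had the highest level at 144, and OGDHL, a paralog of OGDH, had the lowest at 1.61. Lengths were those of GENCODE canonical transcripts and not of the gene models that were counted, so the order rests on them.

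**Figure D1:**
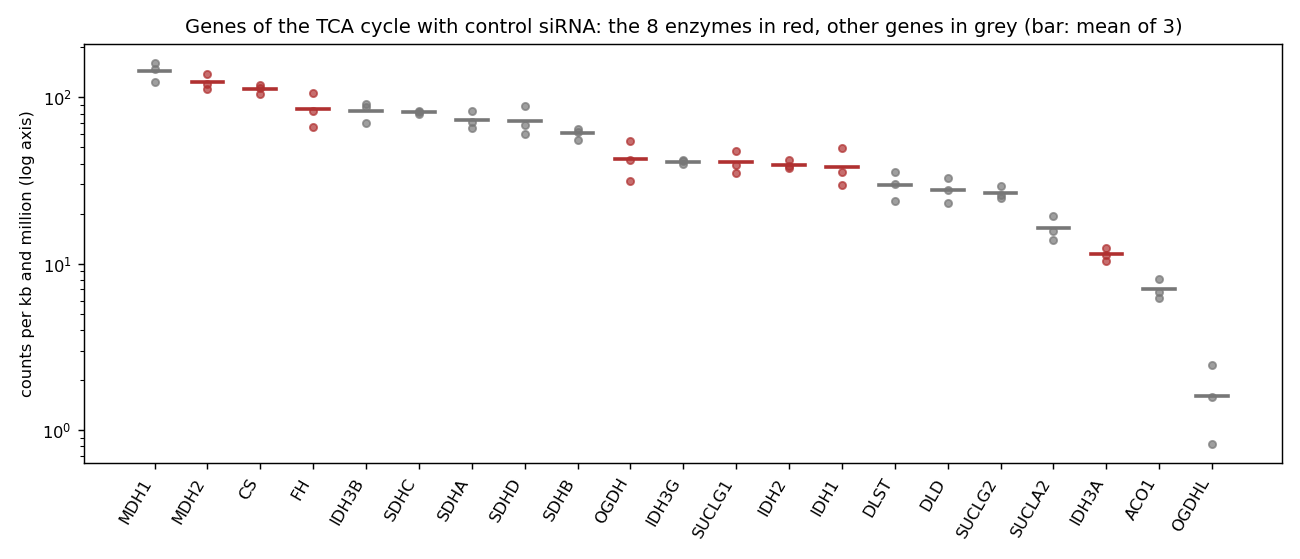
Level of 21 genes of the TCA cycle in the 3 control siRNA libraries, in CPM per kilobase of transcript on a log axis, with each library as a point and the mean of 3 as a bar. MDH2, CS and FH are the highest of the 8 enzymes (red) and IDH3A is the lowest.

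The levels of several enzymes followed the replicate number more than the siRNA. IDH1 was at 82.6, 68.9 and 115 CPM in replicates 1, 2 and 3 of control siRNA, at 63.2, 66 and 119 with HIF1A siRNA, at 63.6, 78.6 and 121 with HIF2A siRNA and at 56.7, 55.4 and 106 in the double knockdown. Replicate 3 was the highest in all 4 conditions, at 1.52 to 1.89 times the mean of the others. OGDH was at 175, 132 and 229 CPM with control siRNA and showed the same order, with replicate 3 at 1.34 to 1.57 times the others across conditions. FH ran the other way, with replicate 3 the lowest in all 4 conditions at 0.674 to 0.804 times the others. Of the variance in log2 CPM over the 12 libraries, 84.3% went with the replicate number for IDH1, 77.7% for OGDH and 60.7% for FH, against a median of 46.5% over the 13000 genes tested. The share of the siRNA condition was 9.6%, 7.24% and 29.6%, respectively. CS (30.9% replicate, 59.1% siRNA) and IDH2 (1.62% replicate, 64.1% siRNA) had the opposite balance. The shares were 29.1% and 36.1% for IDH3A, and 7.27% and 36.3% for SUCLG1. The total variation of IDH2 was small, with an SD of 0.12 in log2 CPM against a median of 0.34 over all genes. Its remainder was 34.3%, and it was called in no comparison. For MDH2 both shares were low, at 13.9% and 13%, and its highest value, 367 CPM, came from replicate 2 of HIF2A siRNA, where the others of that condition were at 277 and 261. What distinguished the replicates is not given by the labels, and they were treated as a block in every test.

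**Figure D2:**
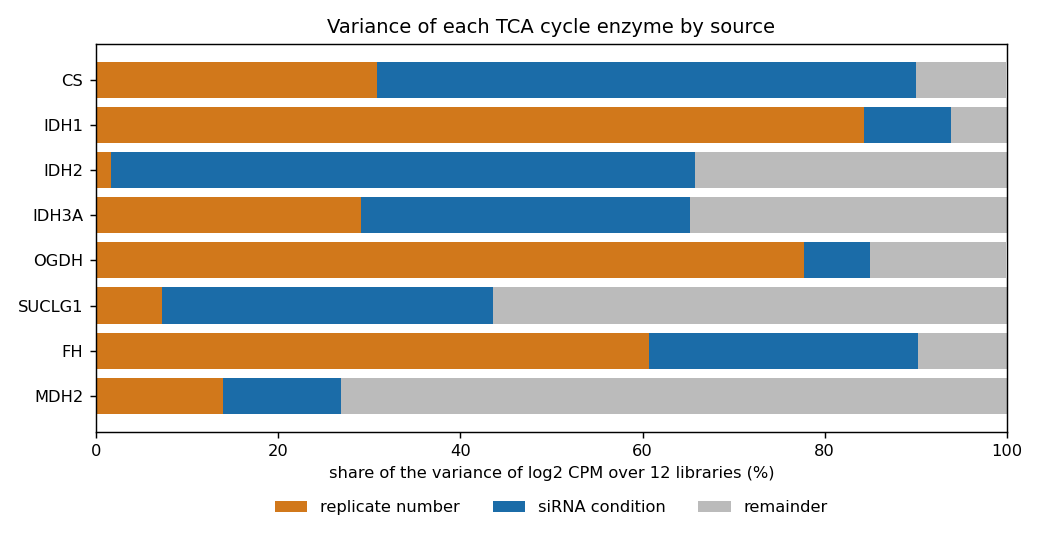
Share of the variance of log2 CPM over the 12 libraries, in percent, that goes with replicate number, siRNA condition and the remainder, as a stacked bar for each of the 8 enzymes. Replicate number takes 84.3% for IDH1 and 77.7% for OGDH, while siRNA takes 64.1% for IDH2 and 59.1% for CS. Bars are shares, and the total for IDH2 was small (SD 0.12 in log2 CPM).

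**Figure D3:**
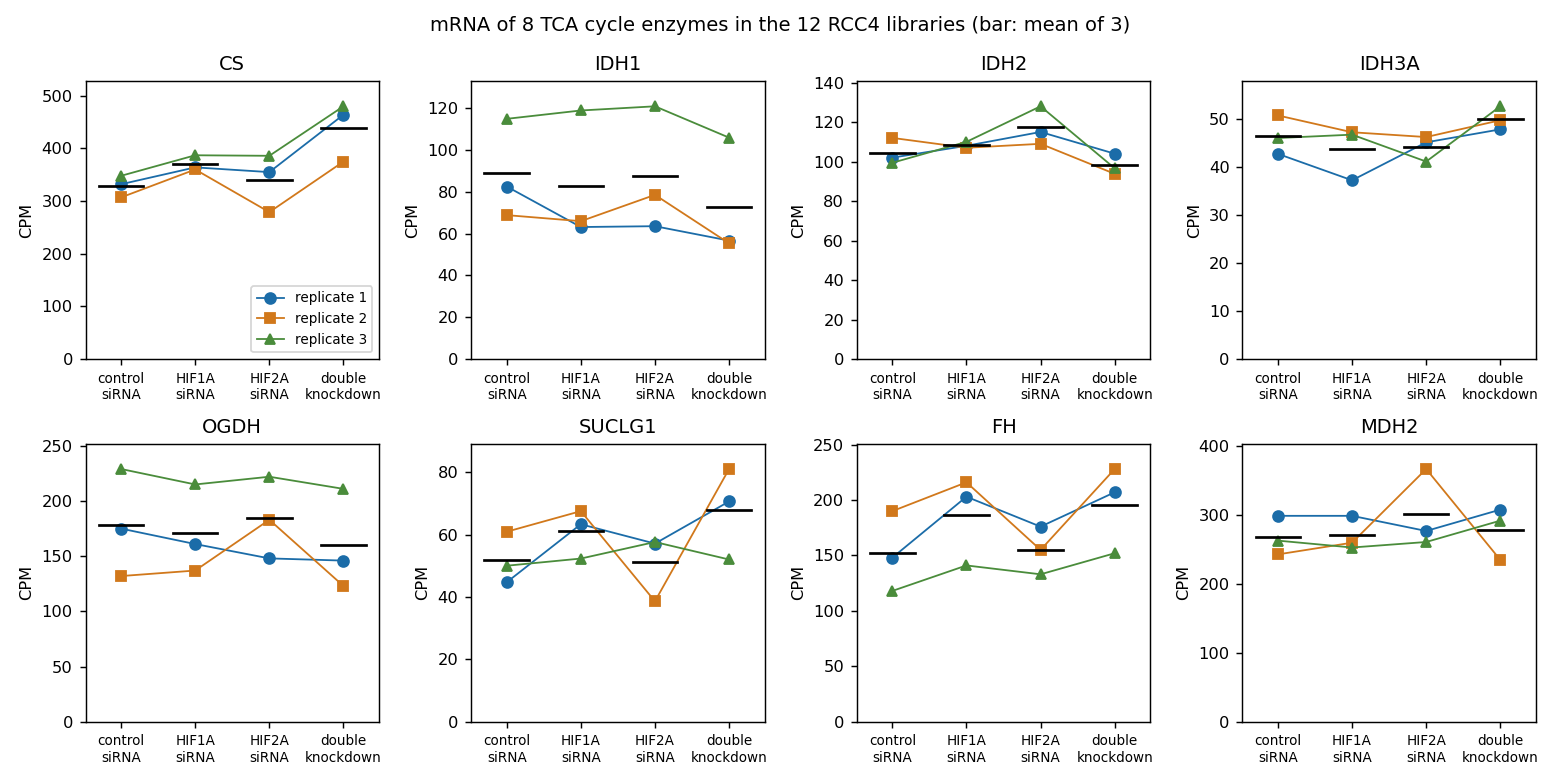
mRNA level of each enzyme in CPM (axes from 0) by siRNA condition, with replicates as joined points and the mean of 3 as a black bar. CS lies above all control libraries in the double knockdown, and replicate 3 stands apart for IDH1, OGDH and FH.

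Knockdown of HIF-1α left the cycle without a detectable change at the level of mRNA. With HIF1A siRNA, 0 of the 8 enzymes had an adjusted p under 0.05 (edgeR's quasi-likelihood test, adjusted over all 12830 genes), where 1.17% of all genes did, 0.0312% higher and 1.14% lower. In bulk RNA, fewer cells with an mRNA and less of it per cell cannot be told apart. DESeq2 also called 0. In edgeR 1 enzyme, FH, had an unadjusted p under 0.05, where 940 of 12830 genes did. FH was at 148, 190 and 118 CPM with control siRNA and at 203, 216 and 141 with HIF1A siRNA. It was higher in all 3 pairs, at 114 to 137% of control, but the groups overlapped and the log2 fold change of 0.30 (SE 0.12, 95% interval 0.03 to 0.57) had an adjusted p of 0.597 in edgeR. CS was at 332, 307 and 348 CPM with control siRNA and 364, 360 and 387 with HIF1A siRNA. All 3 libraries with HIF1A siRNA lay above all 3 controls, as for 2.84% of all genes tested, and the log2 fold change was 0.17 (SE 0.11, edgeR adjusted p = 0.842). SUCLG1 had a value of 0.24 (SE 0.18) and was at 105 to 142% of control within pairs. The other members had log2 fold changes from -0.14 (IDH1) to 0.06 (IDH2). The median over the 8 was 0.03, and over all genes 0. The 95% intervals of the 8 enzymes together ran from 0.741-fold (IDH1) to 1.53-fold (SUCLG1), all outside that of PDK1 (0.175 to 0.303-fold).

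HIF2A siRNA also left the 8 mRNAs without a detectable change. The test of edgeR called 0 of 8 and DESeq2 called 0, where edgeR called 0.0857% of all genes, all of them lower. None of the 8 reached an unadjusted p of 0.05 in edgeR, where 690 of 12830 genes did. The log2 fold changes lay between -0.06 (IDH3A, SE 0.13) and 0.17 (IDH2, SE 0.12, and MDH2, SE 0.15), with a median of 0.05. Without replicate 2 of HIF2A siRNA the value of MDH2 was -0.04, that of OGDH went from 0.07 to -0.12 and that of SUCLG1 from -0.01 to 0.25. The others were then -0.14 (IDH1), -0.04 (IDH3A), 0.14 (CS), 0.18 (FH) and 0.24 (IDH2), and 0 of 8 were called. IDH2 was at 102, 112 and 99.4 CPM with control siRNA and 115, 109 and 128 with HIF2A siRNA, higher in 2 of 3 pairs. The intervals of the 8 ran from 0.761-fold (SUCLG1) to 1.40-fold (MDH2). Compared directly, HIF1A siRNA and HIF2A siRNA gave 0 calls among the 8 enzymes, with DESeq2 as well. Of all genes, edgeR called 1.5% (0.273% higher and 1.23% lower with HIF1A siRNA). At an unadjusted p under 0.05 in edgeR there were 0 of the 8 enzymes, where 1311 of 12830 genes were. FH had the smallest p, with a log2 difference of 0.24 (SE 0.12, adjusted p = 0.539 in edgeR) toward HIF1A siRNA. Without replicate 2 of HIF2A siRNA this was 0.12, the 8 values lay between -0.18 (IDH2) and 0.12, and 0 were called. The comparisons against control share the same 3 control libraries.

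In the double knockdown CS rose. Its level was 464, 375 and 480 CPM, against 332, 307 and 348 with control siRNA, at 122 to 140% of control in the 3 pairs. All 3 libraries lay above all 3 controls, as for 7.08% of all genes tested. The log2 fold change was 0.41 (SE 0.10, 95% interval 0.20 to 0.62, 1.33-fold, adjusted p = 0.016 in edgeR over 13000 genes). CS was the 1 enzyme of 8 called, where 10.3% of all genes were called in this comparison, 3.86% higher and 6.42% lower, so the count of members is near the background. The adjusted p of CS was lost in 6 of 22 other fits, namely without replicate 1 (0.178) or 3 (0.282) of every condition, without replicate 3 of control siRNA (0.0985), without replicate 1 (0.109) or 3 (0.0805) of the double knockdown, and without the replicate block (0.287), while its log2 fold change stayed between 0.37 and 0.47. With replicate block, GC content and transcript length taken into account together, the value was 0.40 (adjusted p = 0.00363 in edgeR).

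FH stood just outside the threshold. It was at 207, 228 and 152 CPM in the double knockdown, at 120 to 140% of control within pairs, with a log2 fold change of 0.37 (SE 0.11, edgeR adjusted p = 0.0502). It was called in 8 of 22 other fits, among them DESeq2 (adjusted p = 0.0164, in a fit that called 1850 genes) and those without replicate number 2 (0.0151), without replicate 2 of control siRNA (0.0362) or without replicate 2 of HIF2A siRNA (0.00645). The groups overlapped, since replicate 3 was low in both conditions. SUCLG1 was at 70.6, 81 and 52 CPM, against 44.7, 60.9 and 50 with control siRNA, with a log2 fold change of 0.38 (SE 0.18, edgeR adjusted p = 0.211). IDH1 was lower than control in all 3 pairs, at 68.6 to 92% of control, with a value of -0.33 (SE 0.12, edgeR adjusted p = 0.0964). Both were called in 2 of 22 other fits, when the 6 libraries compared were fitted alone and when replicate 2 of HIF2A siRNA was left out. Without that library 4 members were called, CS, FH and SUCLG1 higher and IDH1 lower. In that fit 2307 genes were called in all, against 1336 in the reported fit, and their share of the genes tested was not computed. OGDH (-0.16, SE 0.12), IDH2 (-0.09, SE 0.10), IDH3A (0.11, SE 0.11) and MDH2 (0.05, SE 0.14) had intervals that included 0. Of 7 epithelial and renal lineage markers tested in this comparison, edgeR called KRT18 (0.49) and KRT19 (-0.57), DESeq2 called these and PAX8 (higher), and their part in the result was not tested. Of 12 markers of other cell types 5 passed the filter on low counts, and 0 were called by edgeR or DESeq2 or had an unadjusted p under 0.05.

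**Figure D4:**
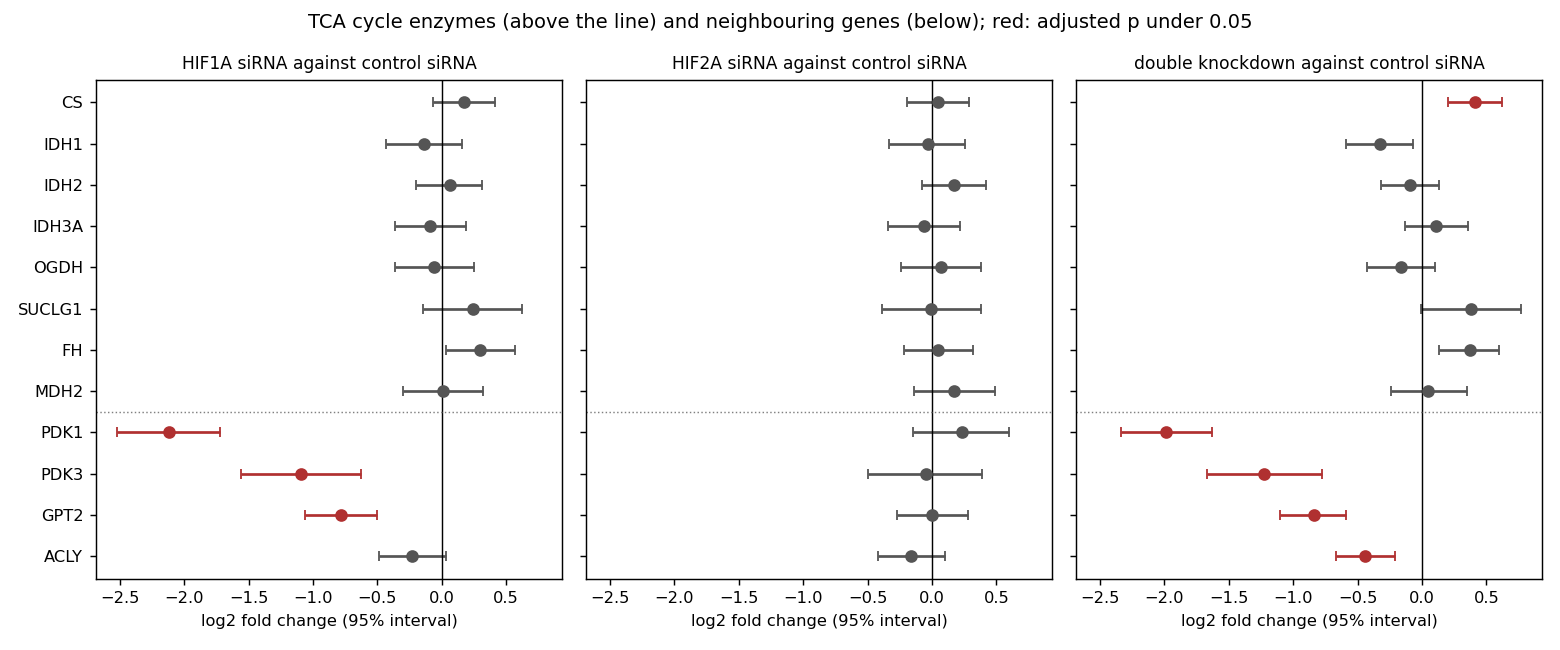
Log2 fold change against control siRNA with its 95% interval for the 8 enzymes and for PDK1, PDK3, GPT2 and ACLY, in 3 comparisons. Red marks an adjusted p under 0.05 in edgeR, which CS alone reaches among the 8 enzymes, in the double knockdown (0.41).

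To set the value of CS against those of the single siRNAs, the double knockdown was compared with each. Against HIF2A siRNA, CS was higher in all 3 pairs, at 124 to 134%, with a log2 fold change of 0.37 (SE 0.10, adjusted p = 0.0497 in edgeR), and it was again the 1 enzyme called, where 4% of all genes were, 0.785% higher and 3.22% lower. This call was lost in 17 of 22 other fits, among them those without any 1 library other than replicate 1 of control siRNA, with adjusted p from 0.0525 to 0.258 for these. At an unadjusted p under 0.05 there were 4 of the 8 enzymes, where 2317 of 13000 genes were. FH had a value of 0.32 (edgeR adjusted p = 0.143), IDH2 of -0.25 (0.218), IDH1 of -0.29 (0.222) and SUCLG1 of 0.38 (0.289). Without replicate 2 of HIF2A siRNA, in which CS was low at 279 CPM, the value of CS was 0.30 (adjusted p = 0.11 in edgeR) and 0 of 8 enzymes were called. The other members then lay between -0.31 (IDH2) and 0.20 (FH). Among them MDH2 went from -0.12 to 0.12, OGDH from -0.23 to -0.04 and SUCLG1 from 0.38 to 0.11. IDH3A was at 0.17 and IDH1 at -0.19. Against HIF1A siRNA the log2 fold change of CS was 0.24 (SE 0.10, 95% interval 0.03 to 0.45, edgeR adjusted p = 0.332), and 0 of 8 enzymes were called, with DESeq2 as well, where 1.4% of all genes were (0.431% higher and 0.969% lower). Here CS was the only member with an unadjusted p under 0.05 in edgeR, where 1585 of 13000 genes had one. For FH the double knockdown against HIF1A siRNA gave a log2 fold change of 0.07 (95% interval -0.17 to 0.31).

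IDH2 and IDH3A were the members whose double knockdown libraries lay beyond all libraries of either single knockdown. IDH2 was at 104, 93.8 and 96.6 CPM in the double knockdown, below every library with HIF1A siRNA (107 to 110) and with HIF2A siRNA (109 to 128). IDH3A was at 47.8, 49.7 and 52.6 CPM, above every library with HIF1A siRNA (37.2 to 47.2) and with HIF2A siRNA (41.1 to 46.2). Both overlapped the control libraries, which were at 99.4 to 112 CPM for IDH2 and 42.7 to 50.7 for IDH3A. Against control siRNA the log2 fold changes were -0.09 and 0.11. Of all genes tested, 4.46% lay wholly below and 3.92% wholly above HIF1A siRNA, and 5.52% and 4.38% did so for HIF2A siRNA. The share of genes beyond both single knockdowns was not computed. None of the differences of IDH2 and IDH3A from the single knockdowns was called by edgeR, with adjusted p between 0.218 and 0.655, or by DESeq2. For IDH2 against HIF2A siRNA the unadjusted p was under 0.05.

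Whether the siRNAs acted independently was asked with their interaction, the log2 change in the double knockdown beyond the sum of those of the single knockdowns. The interaction was called for 0 of 8 enzymes and for 0 of 13000 genes by edgeR, with 318 genes and 0 of the enzymes at an unadjusted p under 0.05, and DESeq2 called 11 genes and 0 of the enzymes. CS had a value of 0.20 (SE 0.14, 95% interval -0.10 to 0.50) and IDH2 of -0.31 (SE 0.15, 95% interval -0.62 to 0.01). Without replicate 2 of HIF2A siRNA these were 0.13 (SE 0.12) and -0.36 (SE 0.14), and 0 enzymes were called. The other members then lay between -0.13 (SUCLG1) and 0.26 (IDH3A). The intervals of CS and IDH2 in the full fit both include 0, and departures from additivity as large as they allow were not excluded with 3 replicates.

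The rest of the pathway set these values in context. Among 13 other genes of the cycle (ACO1, IDH3B, IDH3G, OGDHL, DLST, DLD, SUCLG2, SUCLA2, SDHA, SDHB, SDHC, SDHD and MDH1), edgeR called 0 with HIF1A siRNA, 0 with HIF2A siRNA and 0 in the double knockdown. The numbers at an unadjusted p under 0.05 in edgeR were 0, 1 (SUCLA2) and 1 (OGDHL). Of all genes, 940 and 690 of 12830 and 3291 of 13000 were under it. DESeq2 called OGDHL alone, in the double knockdown. Its level was low, at 5.98 ± 3.02 CPM with control siRNA and 10.6 ± 4.58 in the double knockdown (SD, n = 3). The 4 subunits of succinate dehydrogenase, which is also respiratory complex II, were among those not called. With HIF1A siRNA the 13 genes had log2 fold changes from -0.04 to 0.17, a narrow range, and with HIF2A siRNA from -0.39 to 0.64. In the double knockdown they ran from -0.24 to 0.83. The median over these and the 8 enzymes, 21 genes in all, was 0.05 with either siRNA and 0.01 in the double knockdown.

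Called genes were found among the lists for entry and exit. Of 14 genes for the entry of pyruvate, edgeR called 2 with HIF1A siRNA, PDK1 and PDK3, kinases that inactivate pyruvate dehydrogenase. PDK1 was at 115, 68.3 and 71.2 CPM with control siRNA and fell to 20.1, 16.3 and 21.1 with HIF1A siRNA, with no overlap. Its means were 85 ± 26.4 and 19.2 ± 2.51 (SD, n = 3), a log2 fold change of -2.12 (SE 0.18, edgeR adjusted p = 3.04e-05). PDK1 was at 96.5 ± 6.65 with HIF2A siRNA and 21.2 ± 5.03 in the double knockdown. PDK3 had 28.3 ± 1.19 CPM with control siRNA and 13.7 ± 4.97 with HIF1A siRNA, a log2 fold change of -1.09 (SE 0.21, edgeR adjusted p = 0.0226). Its call was lost in 7 of 20 other fits, with no replicate block (0.249), without replicate number 1 (0.102) or 3 (0.104), without replicate 1 (0.0613) or 3 (0.0819) of control siRNA and without replicate 1 (0.139) or 3 (0.0787) of HIF1A siRNA. The genes of the pyruvate dehydrogenase complex itself (PDHA1, PDHB, DLAT, PDHX and the DLD it shares with the cycle) were not called by edgeR. DESeq2 called PDHA1 higher and PDK2, a further kinase, lower in the double knockdown, where edgeR gave 0.27 (adjusted p = 0.0944) and -1.24 (adjusted p = 0.0739). Of 19 genes that feed or drain the cycle's intermediates, 17 passed the filter on low counts and 1 was called with HIF1A siRNA, GPT2, the mitochondrial alanine aminotransferase that interconverts pyruvate and alanine with glutamate and 2-oxoglutarate. GPT2 was at 64.1, 76.9 and 107 CPM with control siRNA and 36.2, 42.6 and 66.7 with HIF1A siRNA, and each pair stood at 55.4 to 62.2% of its control. The log2 fold change was -0.78 (SE 0.13, edgeR adjusted p = 0.00663). This call was lost in 5 of 20 other fits, with no replicate block (0.969), without replicate number 3 (0.118), without replicate 3 of control siRNA (0.0743) and without replicate 1 (0.102) or 2 (0.0925) of HIF1A siRNA. HIF1A siRNA also gave lower PDK1, PDK3 and GPT2 than HIF2A siRNA did (edgeR adjusted p = 9.73e-06, 0.0268 and 0.00533). Here the call of PDK3 was lost in 7 of 20 other fits, with adjusted p up to 0.292 (no replicate block, without replicate number 1 or 3, and without replicate 1 or 3 of HIF1A siRNA or of HIF2A siRNA), and that of GPT2 in 3 of 20, with adjusted p up to 0.856 (no replicate block, and without replicate 1 or 2 of HIF1A siRNA). In the double knockdown edgeR called all 3 lower than with control siRNA (log2 fold changes -1.99, -1.23 and -0.84), and GPT2 lost this call with no replicate block (adjusted p = 0.266). ACLY, which cleaves exported citrate for lipid synthesis, was called in the double knockdown only, at -0.44 (SE 0.11, edgeR adjusted p = 0.017), and lost the call in 6 of 22 other fits, with adjusted p from 0.0833 to 0.541 (no replicate block, without replicate number 1 or 3, without replicate 1 of control siRNA, and without replicate 1 or 2 of the double knockdown). Its value with HIF1A siRNA was -0.23 (SE 0.12) and with HIF2A siRNA -0.16 (SE 0.12), and the interaction was -0.04 (SE 0.15, edgeR adjusted p = 0.999). None of the 7 genes of 2-hydroxyglutarate metabolism and succinate dehydrogenase assembly was called in these 3 comparisons by edgeR or DESeq2 (6 were tested, and none reached an unadjusted p of 0.05). In the HIF2A siRNA comparison, 0 genes of these lists were called by either tool.

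**Figure D5:**
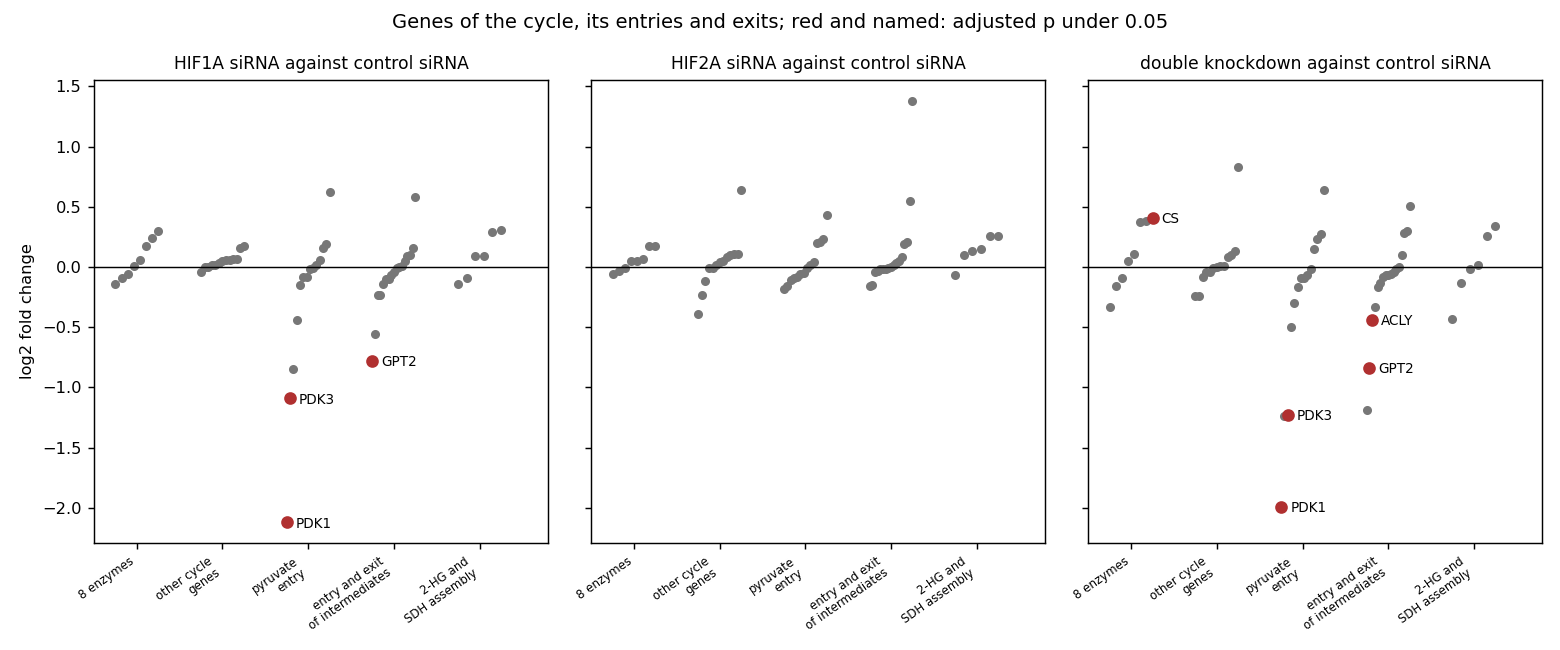
Log2 fold change against control siRNA of each tested gene of the 8 enzymes, the other cycle genes, pyruvate entry, the entry and exit of intermediates, and 2-hydroxyglutarate (2-HG) metabolism with succinate dehydrogenase (SDH) assembly. Genes with an adjusted p under 0.05 in edgeR are red and named, with PDK1 lowest at -2.12 with HIF1A siRNA and CS the only named gene above 0.

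The sequence before the start of CS, the enzyme called, and of FH, which lay next to the threshold, is shown beside that of PDK1. HIF binds a core of the letters ACGTG or GCGTG. Windows were the 250 bases before the start of each gene from RefSeq on GRCh38.p14, a later build than the hg19 of the counts (chr12:56300331-56300580, minus strand, chr1:241519756-241520005, minus strand, and chr2:172555840-172556089, plus strand). They are written 5′ to 3′ on the gene's strand, with ACGTG (reverse complement: CACGT) and likewise the form GCGTG (reverse complement: CACGC) in capitals.
CS: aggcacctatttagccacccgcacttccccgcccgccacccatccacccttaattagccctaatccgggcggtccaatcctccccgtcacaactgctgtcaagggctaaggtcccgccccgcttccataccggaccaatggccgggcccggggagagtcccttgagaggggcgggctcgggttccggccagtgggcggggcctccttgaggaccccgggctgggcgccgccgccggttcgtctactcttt
FH: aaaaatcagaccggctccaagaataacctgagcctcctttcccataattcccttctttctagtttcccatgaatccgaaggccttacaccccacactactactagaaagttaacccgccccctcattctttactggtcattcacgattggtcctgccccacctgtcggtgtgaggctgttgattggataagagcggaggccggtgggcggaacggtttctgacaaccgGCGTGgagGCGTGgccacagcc
PDK1: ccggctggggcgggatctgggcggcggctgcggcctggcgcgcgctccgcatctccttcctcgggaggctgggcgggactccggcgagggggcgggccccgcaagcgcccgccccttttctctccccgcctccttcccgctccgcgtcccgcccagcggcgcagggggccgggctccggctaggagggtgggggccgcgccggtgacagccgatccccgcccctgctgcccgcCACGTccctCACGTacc
The letters ACGTG, on either strand, occurred in 18.5% of 35116 windows of this length, the letters GCGTG in 32.2% and at least 1 of them in 43.2%. An entry was at hand for 7 of the 8 enzymes, all but OGDH, and 0 of these 7 windows held ACGTG. The form GCGTG was held by 5 of the 7, IDH1 with 3 matches, IDH3A and FH with 2 each, and IDH2 and SUCLG1 with 1 each, and neither form by CS and MDH2. Those of FH began 22 and 14 bases before the start. Of the genes lower with HIF1A siRNA, PDK1 held 2 matches to ACGTG, which began 17 and 8 bases before the start, and none to GCGTG. PDK3 held 1 of each, which began 61 and 102 bases before it, and GPT2 had no entry. No matches overlapped in these windows. A match describes letters in this window and says nothing of binding, and their absence says nothing of sites elsewhere.

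The genes whose profile over the 12 libraries was most like that of each enzyme, after the mean of each replicate number was removed, were found by the root mean square difference of log2 CPM. For CS they were CDR2 (0.044) and SLC25A5 (0.048), an ADP/ATP carrier of the inner mitochondrial membrane, where the profile of CS itself had a root mean square of 0.174. For MDH2 they were NDUFS1 (0.047), a subunit of respiratory complex I, and AARS (0.049). Those for FH were ASNA1 and POLR1D, those for IDH1 HIP1 and VPS35, those for IDH2 DNASE2 and MARVELD1, those for IDH3A GGNBP2 and OAT, those for OGDH DDX23 and RNF216, and those for SUCLG1 C8orf59 and FAM58A, with differences between 0.039 and 0.073. A small difference is also what any pair of flat profiles gives.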

How the data were processed

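Bulk RNA-seq of polyA RNA was analysed in 12 RCC4 libraries, 4 siRNA conditions with 3 replicates each, grouped by their titles. Per the labels and the paper's methods, the authors trimmed reads (Trim Galore 0.3.3), aligned them to hg19 (HISAT2 2.05), removed fragments without a unique position (Picard 2.0.1) and counted them per UCSC gene with HTSeq 0.5.4p3. The deposited values are raw counts per symbol. Whether strand was used in counting is not given in the sources used here, although the library kit keeps strand, so genes overlapping on opposite strands are uncertain.

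Here the counts were tested with edgeR 4.0.16 (R 4.3.3), by its quasi-likelihood test with TMM factors (0.98 to 1.02), filterByExpr (at least 10 counts in enough libraries, total at least 15), replicate number as a block, and p adjusted by Benjamini-Hochberg. A gene was called at an adjusted p under 0.05. The 9 libraries without the double knockdown were fitted over 12830 genes, and all 12 over 13000 genes for the double knockdown and the interaction. The study's own tests left the double knockdown out. The 95% intervals used the test's own degrees of freedom. CPM were scaled by TMM, log2 CPM had a prior count of 2, and levels per kilobase used canonical transcripts of GENCODE 44 (all 8 enzymes matched). The paper's methods pair conditions by biological replicate. Deviations of same-numbered libraries from the mean of their condition had r across genes of 0.0963 to 0.738, and others ranged from -0.642 to 0.441. These ranges overlap, and the pairing was clear for replicate 3 only (0.641 to 0.738). Control replicate 2 went with replicate 1 of HIF2A siRNA (0.441) more than control replicate 1 did (0.0963). Centring within conditions in itself lowers r between different numbers. Within conditions, replicate counts differed beyond sampling noise. Scripts were tested on simulated data with planted changes larger than those of the enzymes, so this does not gauge how well changes of their size are found.

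The members and gene lists were chosen with earlier results of these data known. A further gene is not reported here. Named were all 8 enzymes, called genes of the pathway lists, the knockdown checks, and the 2 nearest profiles per enzyme. Alternatives were DESeq2 (1.42.0) or its size factors, other filters, no block, a correction for GC content and length (splines, 5 degrees of freedom), other sets of libraries, and each replicate or library left out.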

Additional observations from a re-analysis of the deposited data

Results flagged for a closer look

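CA9, used as a check of the knockdowns, was higher with HIF2A siRNA than with control siRNA in all 3 pairs (124 to 143%) and lower in the double knockdown than with HIF1A siRNA in all 3 (62.4 to 77.3%). The interaction was -0.94 on the log2 scale, with an adjusted p of 0.54 in edgeR, and DESeq2 called it.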

How the results depend on the processing

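Of 56 results (8 enzymes in 7 comparisons), 2 were called in the reported fits and 54 were not. Of these 54, 51 were called in none of the other fits and 3 (FH, IDH1 and SUCLG1 in the double knockdown against control siRNA) in at least 1. No value that was called in the reported or another fit changed sign, while 62 of 1176 alternative values of the enzymes, none of them called, did. In the double knockdown against control siRNA, 1 enzyme was called as reported, 2 with DESeq2 size factors, with at least 10 counts in every library, with DESeq2 and with the GC and length correction in the fit with the replicate block, 4 with the 6 compared libraries alone and 0 with no replicate block. With a replicate number or library left out it was 0 to 4. Against HIF2A siRNA it was 1 as reported, 0 with no filter (adjusted p of CS 0.051 in edgeR), with the 6 libraries alone or with no replicate block, and 0 to 1 with a replicate or library left out. In the other 5 comparisons it was 0 throughout.

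Counts over all genes moved more. Without the replicate block, calls fell from 150 to 41 for HIF1A siRNA, from 11 to 1 for HIF2A siRNA, from 193 to 52 between them, and from 1336 to 195, from 182 to 8 and from 520 to 90 for the double knockdown against control, HIF1A and HIF2A siRNA. DESeq2 gave 236, 58, 329, 1850, 403 and 818 for these in the same order, and 11 for the interaction. No filter gave 41 for HIF2A siRNA, 291 between the siRNAs and 4 for the interaction, and the GC and length correction 36, 290 and 3, with 368 for the double knockdown against HIF1A siRNA. A fit of all 12 libraries gave 26 for HIF2A siRNA. The 6 libraries alone gave 3 for HIF2A siRNA and 2609, 656 and 164 for the double knockdown. With a replicate or library left out the ranges were 66 to 219, 1 to 33, 90 to 351, 302 to 2307, 26 to 442, 158 to 672 and, for the interaction, 0 to 3. The cause of these shifts was not tested. Where an enzyme was not called, changes as large as its 95% interval allows were not excluded with 3 replicates.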
